A study of Homo sapiens with 2 samples.

Results

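NRF2 is a transcription factor that switches on genes of antioxidant defence and detoxification. In resting cells the adaptor KEAP1 hands NRF2 to a ubiquitin ligase for destruction, and oxidants or electrophiles that modify KEAP1 let NRF2 accumulate. It then pairs with small MAF proteins on antioxidant response elements and drives genes that make glutathione, reduce thioredoxin, supply NADPH, store iron, conjugate foreign compounds and pump the products out, while the repressor BACH1 competes for the same elements. The genes described here are 38 members of this axis, taken by gene symbol from 60527 listed genes. Every symbol was found, and 36 of the 38 had a mean of at least 1 FPKM (fragments per kilobase of exon per 1000000 counted fragments) over both libraries, against 13241 of all genes. The other 2, GSTM3 and UGT1A6, are given by value only.

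RNA was sequenced from a culture treated with 1.75 µM JNJ-7706621 for 48 h and from a culture given the solvent DMSO over that time, 1 library each. The compound JNJ-7706621 blocks Aurora kinases and the kinases that cyclins activate. Both cultures carry the label SK-MEL-2, a human melanoma line, and shared 1 medium with serum and antibiotics. The series title is about AUF1, a protein that binds mRNA and governs its decay. Only 1 library per group was analysed here, so no difference has a replicate check and no test of the treatment was made.

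Depth was 22817719 reads in the JNJ-7706621 library and 23377161 reads in the DMSO library. Exact 95% counting intervals follow the ratios in parentheses. They cover counting error only, not the spread between cultures, which was not estimated here. Melanocyte markers did not bear out the label: of 7 listed, SOX10 and DCT had 0 reads in the JNJ-7706621 library and 1 each in the DMSO library, TYR had 0 in both, and only PMEL and MITF averaged at least 1 FPKM. Epithelial KRT18 stood at 1123 FPKM in the JNJ-7706621 library and 1117 FPKM in the DMSO library. The listed fibroblast and blood markers averaged under 1 FPKM. The levels below are therefore those of cultures labelled SK-MEL-2, without a claim on their cell type.

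The binding element of NRF2 is shown first, since it is what ties these genes together as a family. The core TGACNNNGC was searched on both strands in RefSeq promoter windows on GRCh38.p14, from 250 bases before to 50 bases after a transcript start. Windows were found for 29 of the 38 genes. The unmatched genes were SLC7A11, GSR, PRDX1, HMOX1, FTH1, CBR3, ABCC1, ABCC3 and TRIM16L. The core was present for 13 of the 29 genes (44.8%), against 16.1% of all 27305 genes with a window and 19 of 83 other genes of the pathway (22.9%). By window, the shares were 34.1% of 41 windows of the axis and 13.3% of all 35116. A match is a run of letters and not a measured binding site.

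The following 8 matches are printed 5′ to 3′ on the strand on which the core reads forward, with the core in capitals and 10 bases on each side. They stand for the enzyme, redox and regulator genes that the results turn on. Distances in bases count to the end of the core that is first in the gene's direction.
GCLM, 34 bases before the start, chr1:93909446-93909474, plus strand: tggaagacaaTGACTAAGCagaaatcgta
KEAP1, 31 bases before the start, chr19:10502784-10502812, plus strand: caggtcaccaTGACTAAGCagagccgggc
GPX2, 122 bases before the start, chr14:64942849-64942877, plus strand: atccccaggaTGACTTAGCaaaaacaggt
TXNRD1, 102 bases before the downstream start, chr12:104286920-104286948, minus strand: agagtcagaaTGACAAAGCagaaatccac
CBR1, 159 bases before the start, chr21:36069855-36069883, minus strand: ccagctagccTGACTTTGCagaacccgca
PGD, 201 bases before the start, chr1:10398853-10398881, minus strand: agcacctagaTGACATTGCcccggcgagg
ME1, 137 bases before the start, chr6:83431170-83431198, minus strand: tctcctgccaTGACTCAGCgcttctcgca
PIR, 27 bases after the start, chrX:15493289-15493317, plus strand: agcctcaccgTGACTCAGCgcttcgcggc

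GCLM and KEAP1 carried the same core, TGACTAAGC, so the gene of NRF2's own inhibitor and that of a glutathione enzyme share these letters. ME1 and PIR carried TGACTCAGC, which also holds the AP-1 motif TGANTCA. They were the 2 of 17 matches in these windows that did. Counted anywhere in a window, inside the core or outside it, TGANTCA was present for 5 of the 29 genes (17.2%). ME1 and PIR are among these 5, and the share of all genes with a window was 9.37%. Differences between the libraries lay on both sides of 0 for genes with the core in a window and for genes without it. The 12 genes with the core and a mean of at least 1 FPKM had a median log2 difference of 0.01 (6 above 0). Genes with a window but no core had a median of -0.11 (7 of 15 above 0). Genes without a window had a median of 0.12 (6 of 9 above 0). Sequence outside the windows was not searched, so these groups do not separate genes with a binding element from genes without one. Whether the element bears on the differences was therefore not tested.

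The 250 bases before the start are shown for 2 genes that had many reads and ratios on opposite sides of 1, PGD below it and TXNRD1 above it, with the core or its complement in capitals, 5′ to 3′ in the direction of the gene.
PGD, chr1:10398814-10399063, plus strand: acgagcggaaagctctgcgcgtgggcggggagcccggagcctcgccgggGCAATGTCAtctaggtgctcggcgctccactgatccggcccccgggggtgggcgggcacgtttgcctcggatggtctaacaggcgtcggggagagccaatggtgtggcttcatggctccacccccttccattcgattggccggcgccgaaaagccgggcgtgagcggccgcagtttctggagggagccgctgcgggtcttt
TXNRD1, downstream start, chr12:104286782-104287031, plus strand: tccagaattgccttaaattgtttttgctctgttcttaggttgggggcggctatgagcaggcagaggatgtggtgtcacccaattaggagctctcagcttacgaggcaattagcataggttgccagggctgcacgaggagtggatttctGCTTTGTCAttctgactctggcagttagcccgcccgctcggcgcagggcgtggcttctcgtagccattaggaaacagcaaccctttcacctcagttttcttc
Both stretches hold 1 match of the core, and in both it lies on the strand opposite to the gene.

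Many of these genes had high absolute levels in both cultures. They were chosen with earlier results of these data known, so their standing against all genes is a description only. Of the 36 genes, 22 had a mean of at least 32.5 FPKM, the level above which the upper 10% of all genes tested lay. The median of the 36 was 55.5 FPKM in the JNJ-7706621 library and 48.9 FPKM in the DMSO library, against 5.49 and 5.55 FPKM over all genes tested. Other genes of the pathway shared this in part: 27 of the 88 tested reached that upper 10%, and their medians were 15.7 and 14.1 FPKM. At least 100 FPKM was reached by 10 of the 38 genes in the JNJ-7706621 library and by 13 in the DMSO library, against 2.98% and 2.78% of all genes tested. The ferritin light chain FTL held rank 15 in the JNJ-7706621 library and rank 14 in the DMSO library among all listed genes, and FTH1, the ferritin heavy chain, ranks 21 and 26. Thioredoxin (TXN) held ranks 29 and 46, and the quinone reductase NQO1, the usual reporter gene of NRF2 activity, ranks 51 and 61.

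Together the 38 genes took 460762 reads or 2.02% of the JNJ-7706621 library total (exact 95% binomial interval 2.01% to 2.03%) and 464207 reads or 1.99% of the DMSO library total (1.98% to 1.99%). Iron and haem genes took the largest share of the 8 role groups, 0.609% in the JNJ-7706621 library and 0.556% in the DMSO library. The shares by role differed in both directions: thioredoxin genes took 0.385% (0.383% to 0.388%) in the JNJ-7706621 library and 0.310% (0.308% to 0.312%) in the DMSO library, while NADPH genes took 0.309% (0.307% to 0.311%) and 0.426% (0.424% to 0.429%). PGD carried most of the gap in the NADPH group: without it the other 4 genes took 0.180% in the JNJ-7706621 library and 0.220% in the DMSO library.

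**Figure D1:**
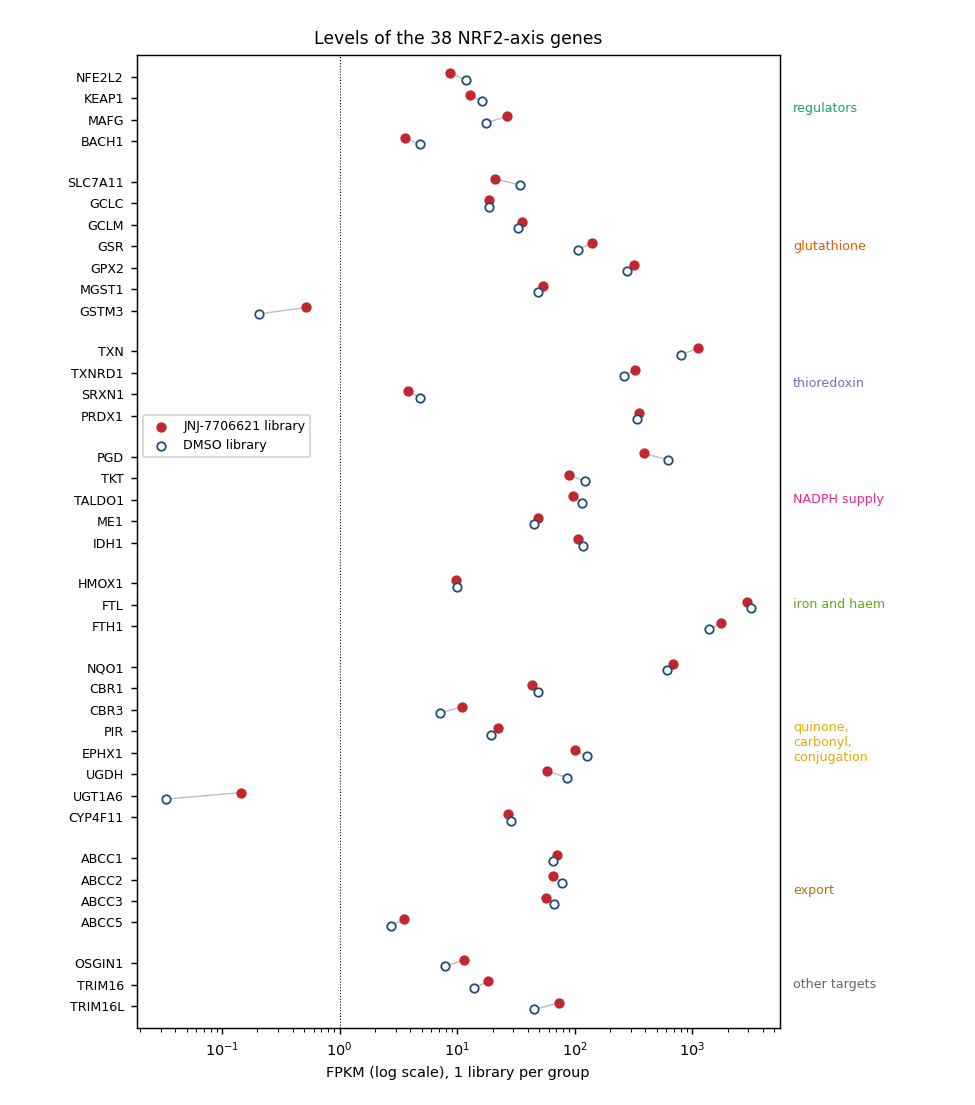
FPKM of each of the 38 genes on a log axis, by role, with the JNJ-7706621 library as filled red points and the DMSO library as open blue points, 1 library each. The values run from 0.144 FPKM (UGT1A6) to 2916 FPKM (FTL) in the JNJ-7706621 library, and only GSTM3 and UGT1A6 lie left of the dotted line at 1 FPKM in both.

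Among the 36 genes tested, the comparison between the libraries found none beyond 2-fold in either direction. GSTM3 and UGT1A6, under the minimum mean of 1 FPKM, had FPKM ratios of 2.49 and 4.35 and were not tested. Differences are JNJ-7706621 minus DMSO on the log2(FPKM + 1) scale, and a gene was called at a difference of at least 1 or at most -1. Of the 36 genes 0 were called higher, against 2.39% of all 13241 genes tested, and 0 were called lower, against 1.36%. In bulk RNA, fewer cells of a type and less RNA per cell cannot be told apart in any of these values. The median of the 36 differences was 0.03, beside -0.00 over all genes tested, and 19 of them lay above 0 (52.8%), against 49.6% of all genes.

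At a smaller size of 1.5-fold, 1 of the 36 genes was called higher, against 8.53% of all genes, and 2 were called lower, against 6.77%. These were TRIM16L on the higher side and SLC7A11 and PGD on the lower side. The pseudocount kept MAFG and CBR3 just under this size, at log2 differences of 0.57 each: with a pseudocount of 0.1 they were called too, which made 3 genes higher and 2 lower, beside 1569 and 1470 of all 13241 genes. SLC7A11 and PGD were also the only genes of the 36 outside the range that held the middle of all genes, from -0.66 at the lower 5% to 0.76 at the upper 5%. Between the quartiles of all genes, -0.25 and 0.26, lay 16 of the 36.

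**Figure D2:**
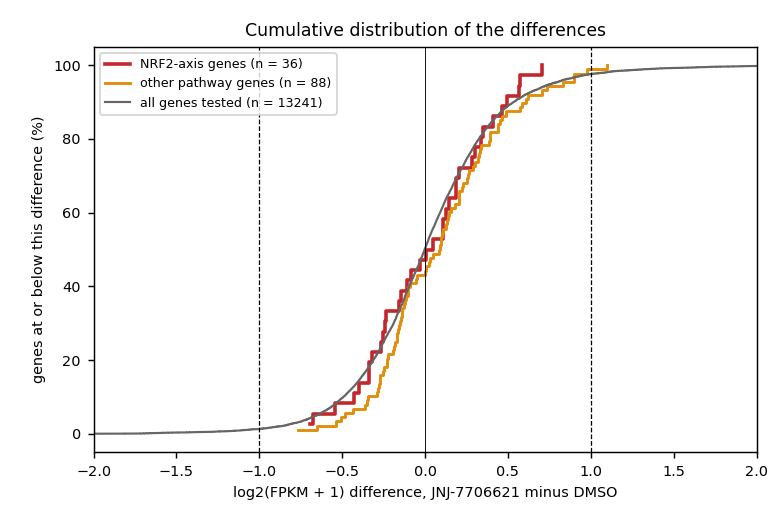
Cumulative share of genes (vertical axis, %) by log2(FPKM + 1) difference, JNJ-7706621 minus DMSO (horizontal axis), for the 36 genes of the axis, 88 other pathway genes and all 13241 genes tested. The curve of the axis stays between the dashed lines at -1 and 1 and crosses the middle at 0.03, close to the curve of all genes.

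Of the regulators, the activator, its inhibitor and its repressor had ratios below 1 and the small MAF partner had one above 1, all within the 2-fold rule. NFE2L2, which encodes NRF2, stood at 8.76 FPKM in the JNJ-7706621 library and 11.9 FPKM in the DMSO library, a ratio of 0.737 (0.682 to 0.796). KEAP1, the adaptor that marks NRF2 for destruction, stood at 12.9 and 16.3 FPKM, a ratio of 0.788 (0.726 to 0.855). BACH1, the haem-sensitive repressor of the same elements, stood at 3.59 and 4.82 FPKM, a ratio of 0.746 (0.672 to 0.827). These 3 ratios lie close together, and their counting intervals overlap. MAFG, the small MAF protein that dimerises with NRF2 and is also a target of it, stood at 26.6 FPKM in the JNJ-7706621 library and 17.6 FPKM in the DMSO library, a ratio of 1.51 (1.43 to 1.59). NRF2 is governed mainly by protein stability, which these data do not measure. For NFE2L2, 13.2% of its transcript 50-mers also occur in the overlapping gene AC019080.1, which held 33 reads in the JNJ-7706621 library and 41 in the DMSO library.

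Glutathione genes split between import and recycling. SLC7A11, the cystine importer that limits glutathione synthesis, stood at 20.8 FPKM in the JNJ-7706621 library and 34.3 FPKM in the DMSO library, a ratio of 0.606 (0.584 to 0.629) and the lowest of the 36. It lies at chr4:138164097-138242349. The 2 subunits of glutamate-cysteine ligase, which makes the first bond of glutathione, were level by comparison. GCLC, the catalytic subunit, stood at 18.8 FPKM in both libraries, a ratio of 1.00 (0.959 to 1.05), and GCLM, the modifier subunit, at 35.8 FPKM in the JNJ-7706621 library and 33.2 FPKM in the DMSO library, a ratio of 1.08 (1.03 to 1.13). SLC7A11 and these ligase genes thus differed in ratio by more than their counting error.

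GSR, the reductase that recycles oxidised glutathione, stood at 141 FPKM in the JNJ-7706621 library and 106 FPKM in the DMSO library, a ratio of 1.33 (1.29 to 1.37). GPX2, a glutathione peroxidase typical of gut epithelium, stood at 320.1 and 278 FPKM, a ratio of 1.15 (1.12 to 1.19). MGST1, a membrane-bound glutathione transferase, stood at 54.3 and 49.0 FPKM, a ratio of 1.11 (1.08 to 1.14). All 3 were on the higher side by less than 1.5-fold. GSTM3, a mu-class glutathione transferase, had 56 reads in the JNJ-7706621 library and 23 in the DMSO library, above the floor of 3 reads. Its mean lay under 1 FPKM, so its ratio of 2.49 (1.51 to 4.25) did not enter the counts.

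Of the 4 thioredoxin genes of the axis, 3 had ratios above 1 and sulfiredoxin had one below 1. The 12 tested thioredoxin genes outside the axis were split, with 6 above 0, 6 below 0 and a median log2 difference of 0.06. TXN, the small protein that reduces disulfides, stood at 1122 FPKM in the JNJ-7706621 library and 798 FPKM in the DMSO library, a ratio of 1.41 (1.38 to 1.43). TXNRD1, the selenoenzyme that recharges thioredoxin with NADPH, stood at 324 and 264 FPKM, a ratio of 1.23 (1.21 to 1.25). PRDX1, a peroxiredoxin that spends thioredoxin on peroxides, stood at 353 and 341 FPKM, a ratio of 1.03 (1.01 to 1.06). The intervals of these 3 ratios do not overlap, so the protein, its reductase and its client enzyme differed in size of ratio beyond counting error. SRXN1, sulfiredoxin, which repairs overoxidised peroxiredoxins, stood at 3.83 FPKM in the JNJ-7706621 library and 4.80 FPKM in the DMSO library, a ratio of 0.798 (0.670 to 0.949). Its level is uncertain, because 84.7% of its transcript 50-mers also occur in the overlapping gene AL121758.1 and reads shared by both may not have been counted.

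The 5 NADPH supply genes of the axis were on the lower side in 4 cases, with a median log2 difference of -0.26 and a summed level of 729 FPKM in the JNJ-7706621 library against 1019 FPKM in the DMSO library, or 341 against 399.6 FPKM without PGD. The 12 tested NADPH genes outside the axis lay mostly on the other side, with 10 above 0 and a median of 0.16. PGD, phosphogluconate dehydrogenase, an NADPH-making step of the pentose phosphate pathway, stood at 387 FPKM in the JNJ-7706621 library and 620 FPKM in the DMSO library, a ratio of 0.625 (0.616 to 0.634). The reads behind it, 29453 and 48288, make it one of the most precise ratios here. TKT, transketolase, stood at 89.9 and 121 FPKM, a ratio of 0.740 (0.727 to 0.754), and TALDO1, transaldolase, at 96.4 and 115 FPKM, a ratio of 0.836 (0.809 to 0.865). These 3 pentose phosphate genes had the lowest ratios of the group. IDH1, the cytosolic isocitrate dehydrogenase, stood at 107 FPKM in the JNJ-7706621 library and 118 FPKM in the DMSO library, a ratio of 0.902 (0.880 to 0.925). ME1, the cytosolic malic enzyme, was the exception at 48.4 and 44.8 FPKM, a ratio of 1.08 (1.03 to 1.13).

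Iron and haem genes included the most abundant mRNAs of the axis. FTL stood at 2916 FPKM in the JNJ-7706621 library and 3147 FPKM in the DMSO library, a ratio of 0.927 (0.916 to 0.937). FTH1, the ferroxidase chain of the same ferritin shell, stood at 1762 and 1393 FPKM, a ratio of 1.27 (1.25 to 1.28). The 2 chains thus lay on opposite sides of 1. Both have processed copies elsewhere in the genome: 18.3% of the 50-mers of FTL and 19.9% of those of FTH1 occur in other genes. Exons of BEST1 also overlap 62.4% of the exon bases of FTH1. These small differences, and the level of FTH1, are therefore uncertain. HMOX1, haem oxygenase, a gene that oxidants and haem induce steeply in many cells, stood at 9.78 FPKM in the JNJ-7706621 library and 10.01 FPKM in the DMSO library, a ratio of 0.977 (0.864 to 1.10). GCLC and HMOX1 were the 2 genes of the 36 whose counting interval held 1.

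Among enzymes of quinones, carbonyls and conjugation, NQO1 stood at 690.1 FPKM in the JNJ-7706621 library and 606 FPKM in the DMSO library, a ratio of 1.14 (1.12 to 1.15). CBR3, a carbonyl reductase, stood at 11.1 and 7.12 FPKM on 252 and 166 reads, a ratio of 1.56 (1.27 to 1.90). CBR1, its close neighbour and relative, stood at 43.7 and 48.7 FPKM, a ratio of 0.896 (0.848 to 0.946). CBR1 (chr21:36069941-36073166) and CBR3 (chr21:36134912-36146566) thus lay on opposite sides of 1 although they are neighbours. CBR3-AS1 covers 42.2% of the exon bases of CBR3, and whether strand was used in counting is not given in the sources used here.

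PIR, pirin, an iron-binding nuclear protein, stood at 22.1 FPKM in the JNJ-7706621 library and 19.3 FPKM in the DMSO library, a ratio of 1.15 (1.06 to 1.24). EPHX1, the microsomal epoxide hydrolase, stood at 99.9 and 127 FPKM, a ratio of 0.789 (0.762 to 0.817). UGDH, which makes the glucuronic acid donor for conjugation, stood at 58.4 and 85.4 FPKM, a ratio of 0.684 (0.660 to 0.708). UGDH had the third lowest ratio of the 36, after SLC7A11 and PGD. CYP4F11, a fatty acid hydroxylase, stood at 27.1 FPKM in the JNJ-7706621 library and 28.8 FPKM in the DMSO library, a ratio of 0.941 (0.891 to 0.994). UGT1A6, a transferase that uses the donor made by UGDH, had 17 reads in the JNJ-7706621 library and 4 in the DMSO library. Its ratio of 4.35 (1.42 to 17.8) rests on these few reads and did not enter the counts. It shares 41.6% of its 50-mers with other genes, mainly those of its own cluster.

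Export pumps of the ABCC family, several of which carry glutathione and glucuronide conjugates out of the cell, were on both sides of 1. ABCC1 stood at 70.9 FPKM in the JNJ-7706621 library and 65.0 FPKM in the DMSO library, a ratio of 1.09 (1.06 to 1.12), and ABCC5, the least abundant, at 3.55 and 2.74 FPKM, a ratio of 1.30 (1.17 to 1.43). ABCC2, the pump of the apical membrane in liver and gut, stood at 65.8 and 77.5 FPKM, a ratio of 0.849 (0.828 to 0.870). ABCC3, its basolateral counterpart, stood at 56.7 and 67.3 FPKM, a ratio of 0.842 (0.823 to 0.863), so the apical and the basolateral pump had ratios within counting error of each other.

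The remaining targets were all on the higher side. OSGIN1, an oxidative stress-induced growth inhibitor, stood at 11.4 FPKM in the JNJ-7706621 library and 7.95 FPKM in the DMSO library, a ratio of 1.43 (1.32 to 1.55). TRIM16L, a shortened relative of the tripartite-motif gene TRIM16, stood at 73.7 and 44.7 FPKM, a ratio of 1.65 (1.59 to 1.71) and the highest of the 36. TRIM16 stood at 18.2 and 14.05 FPKM, a ratio of 1.29 (1.22 to 1.37). TRIM16 (chr17:15627960-15684311) and TRIM16L (chr17:18697998-18736118) share sequence: 39.4% of the 50-mers of TRIM16L occur in TRIM16 and 28.9% of those of TRIM16 occur in TRIM16L. Their reads may have been split between them, so the 2 ratios are not independent.

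**Figure D3:**
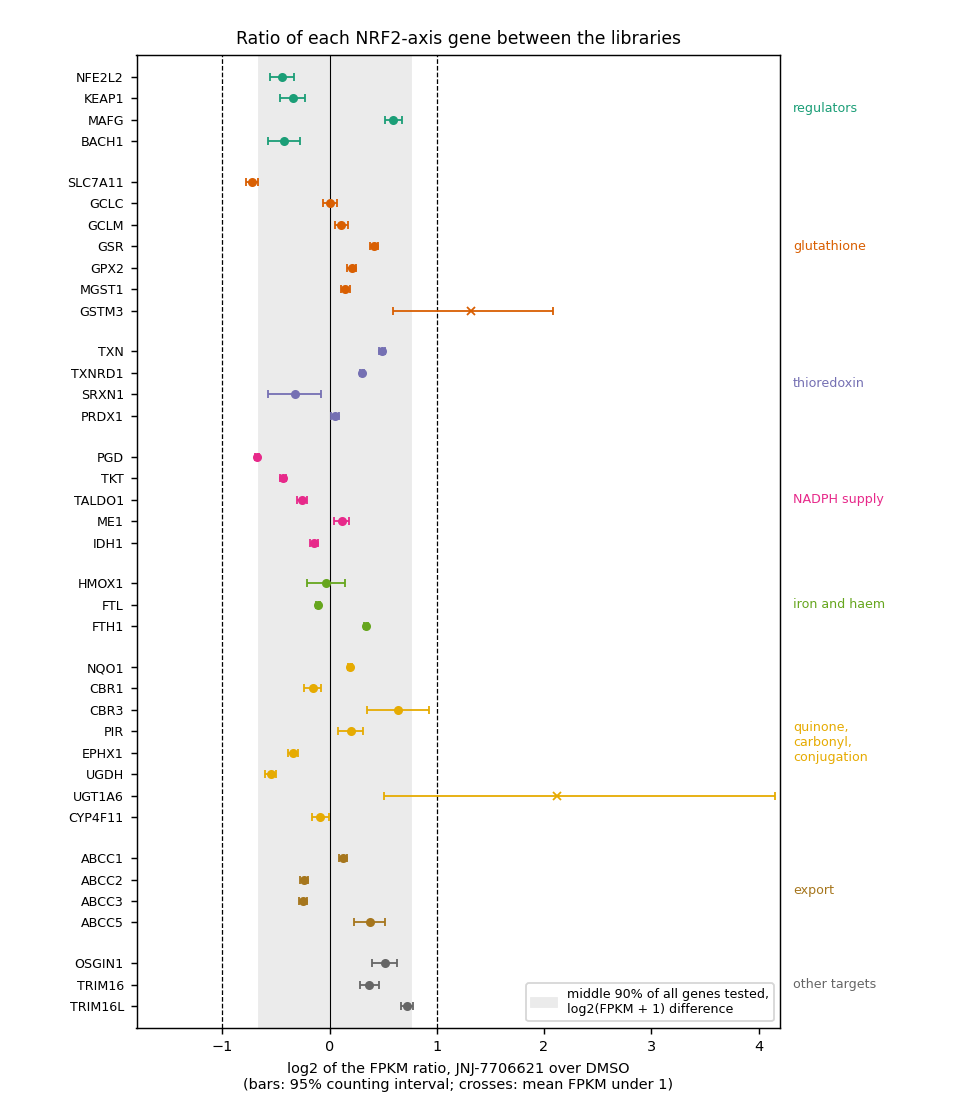
log2 of the FPKM ratio, JNJ-7706621 over DMSO, for each of the 38 genes by role, with 95% counting intervals as bars, crosses for the 2 genes under a mean of 1 FPKM, dashed lines at -1 and 1, and in grey the range of log2(FPKM + 1) differences that held the middle 90% of all genes tested. TRIM16L at a ratio of 1.65 and SLC7A11 at 0.606 mark the ends, and all 36 tested genes lie inside the dashed lines.

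**Figure D4:**
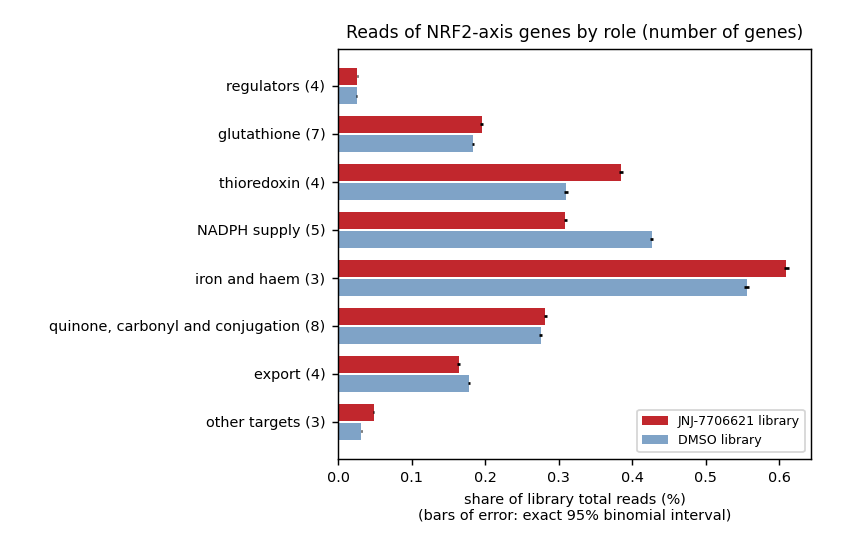
Share of the library total (%) taken by the genes of each role, JNJ-7706621 in red above DMSO in blue, 1 library each, with exact 95% binomial intervals as error bars and the number of genes in brackets. Thioredoxin genes took 0.385% and 0.310%, and NADPH supply genes 0.309% and 0.426%.

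Exon length was looked at because longer genes stood slightly lower across the whole table. Over all 13108 genes tested with a recovered exon length, Spearman's rho between length and log2 difference was -0.08, and over the 36 genes it was -0.20. Genes share their library, so these are descriptions. The 18 genes of the axis with shorter exon length had a median log2 difference of 0.01, and the 18 longer ones had 0.06. With the median difference of genes of like length taken off, no sign changed among the 36 genes and the largest shift was 0.10, for SLC7A11, from which a log2 difference of -0.59 remained.

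Other genes of the same pathway were listed for comparison, 98 of them, with 88 at a mean of at least 1 FPKM. Of these 1 was called 2-fold higher, against 2.39% of all genes, and 0 were called lower, against 1.36%. Their median log2 difference was 0.09, with 49 above 0 (55.7%, against 49.6% of all genes). At 1.5-fold, 9 were called higher, or 10.2% against 8.53% of all genes, and 2 lower, or 2.27% against 6.77%. The called gene was SOD2, the mitochondrial superoxide dismutase, at 34.0 FPKM in the JNJ-7706621 library and 15.4 FPKM in the DMSO library, a ratio of 2.21 (2.15 to 2.28). SOD2 is a target of NF-kB as well. SESN1, a sestrin and p53 target named here after its values were seen, had a larger ratio on fewer reads, 2.30 (1.97 to 2.69) at 4.60 FPKM in the JNJ-7706621 library and 2.00 FPKM in the DMSO library. The pseudocount kept its log2 difference at 0.90, and it was called with pseudocounts of 0.1 and 0.5. CAT, catalase, which removes the peroxide that such dismutases make, stood at 16.04 and 28.0 FPKM, a ratio of 0.574 (0.536 to 0.614) and a log2 difference of -0.77.

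Among glutathione genes outside the axis, CHAC2, which degrades glutathione, stood at 15.3 FPKM in the JNJ-7706621 library and 7.74 FPKM in the DMSO library, a ratio of 1.97 (1.68 to 2.32), and LANCL1, a glutathione-binding protein, had a ratio of 0.680 (0.647 to 0.714). In the thioredoxin list TXNIP, which binds and blocks thioredoxin, stood at 24.6 and 13.4 FPKM, a ratio of 1.84 (1.71 to 1.98), and TXN2, the mitochondrial thioredoxin, at 36.9 and 44.8 FPKM, a ratio of 0.824 (0.767 to 0.885). TXN and its inhibitor TXNIP therefore had ratios on the same side of 1. ALDH3A1, an aldehyde dehydrogenase, stood at 695 FPKM in the JNJ-7706621 library and 353 FPKM in the DMSO library, a ratio of 1.97 (1.94 to 1.99), with a log2 difference of 0.97 just under the size rule. AKR1C2, an aldo-keto reductase, stood at 521 and 619 FPKM, a ratio of 0.841 (0.833 to 0.849).

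Of the other small MAF factors and NRF2 relatives, MAFK stood at 40.1 FPKM in the JNJ-7706621 library and 63.6 FPKM in the DMSO library, a ratio of 0.630 (0.606 to 0.655), on the other side of 1 from MAFG, and NFE2L1 had a ratio of 1.09 (1.06 to 1.13). In the ligase and turnover list GSK3B, a kinase that marks NRF2 for a second ligase, had a ratio of 0.756 (0.706 to 0.809), and DPP3, which competes with NRF2 for KEAP1, a ratio of 1.35 (1.23 to 1.47). In NADPH supply IDH2, the mitochondrial isocitrate dehydrogenase, had a ratio of 1.44 (1.31 to 1.59), unlike cytosolic IDH1. PGLS, the lactonase just before PGD in the pentose phosphate pathway, had a ratio of 0.826 (0.75 to 0.910). In the iron list ACO1 and IREB2, which encode the related iron regulatory proteins, had ratios of 1.54 (1.45 to 1.65) and 0.892 (0.846 to 0.941). Among pumps ABCC4 had a ratio of 0.679 (0.627 to 0.736) and ABCG2 one of 0.998 (0.926 to 1.08).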

How the data were processed

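RNA sequencing of 2 cultures was analysed, 1 treated with JNJ-7706621 and 1 with DMSO, grouped by the treatment label. Per the file headers, the values deposited by the authors are FPKM, 1 row per Ensembl gene with its symbol. The build hg38 and edgeR are named in the submitters' processing notes, with neither a version nor a role. For aligner, read counter, annotation release and strand setting nothing is given in the sources used here. Of 4 value columns, the 2 whose names match the sample titles were used and the other 2, whose names match no sample label given here, were not used. The labels do not settle what those hold.

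Library totals were found as the whole number that FPKM and exon lengths of GENCODE release 29 share, and reads as the whole numbers they imply (tolerance 0.0001), for 27805 of 28014 annotated genes above 0. For the 38 genes, 34 recovered lengths lay within 10% of the annotated ones. OSGIN1 lay farthest off (5558 against 3460 bases). Recovered reads made up 99.7% of each total and served for intervals only. Ratio intervals are exact Clopper-Pearson intervals conditional on the summed reads. PCR copies could not be told from separate molecules, so intervals and floors (3 reads) cover counting error only.

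A gene entered at a mean of 1 FPKM or more. Differences used a pseudocount of 1, which understates those of low genes, and the call was 2-fold. With 1 library per group analysed, no p-value was computed. Of several entries for a symbol, the one with the highest mean was read. Named from the 98 other pathway genes are those past the rule and, in each list, the highest and lowest difference at a mean FPKM of at least 5. Members and lists were chosen with earlier results of these data known. GGCX, a vitamin K-dependent carboxylase, stands in the glutathione list by mistake and was kept. Sequence sharing was counted over all 50-mers of GENCODE transcripts. Promoter windows are RefSeq's on GRCh38.p14. Calculations ran in Python 3.11.15 with scipy 1.17.1 and were tested on simulated libraries.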

Additional observations from a re-analysis of the deposited data

How the results depend on the processing

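No paired analysis and no check that leaves out a replicate could be run, because 1 library per group was analysed here. Among the genes of the axis, the counts higher and lower stayed 0 with pseudocounts of 0.1 and 0.5 and with rescaling to TPM. They also stayed 0 with centring on the median of all genes and with a minimum of 5 FPKM. Taking off the trend of exon length, chosen after seeing the data, gave 0 as well. So did leaving out genes that share at least 10% of their 50-mers with others, also chosen then. Dropping the filter on low values left 0 too, but it added only GSTM3 and UGT1A6. At their levels and a pseudocount of 1 neither could reach a log2 difference of 1, so this setting was no check. The 1.5-fold rule gave 1 higher and 2 lower, and with a pseudocount of 0.1 as well, a pair of choices added after seeing the data, 3 and 2. Under these alternatives the median of the axis ranged from 0.01 to 0.08, and GCLC was the 1 gene whose sign turned, under TPM. Other pathway genes had 2 higher in place of 1 with pseudocounts of 0.1 and 0.5 and with TPM, 9 higher and 2 lower at 1.5-fold, and 11 and 2 with both changes. Over all genes 316 were higher and 180 lower. These became 608 and 409 with a pseudocount of 0.1, 714 and 478 with TPM, 145 and 75 at a minimum of 5 FPKM, 1130 and 897 at 1.5-fold and 1569 and 1470 with both changes, and 274 were lower with a pseudocount of 0.5. With TPM, 15964 genes passed the minimum of 1. Counting limits GSTM3 and UGT1A6 most, and the spread between cultures was not estimated for any gene.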

Other observations

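Some further genes of the pathway are given here, picked with their levels known. The JNJ-7706621 library held the aldo-keto reductases AKR1B10 and AKR1C3 at 2148 and 474 FPKM, and the DMSO library at 2113 and 424 FPKM. PRDX2, a peroxiredoxin of the cytosol, was listed at 0 in both libraries. Whether this value reflects the cells or the way reads were counted was not tested, so it does not show that the mRNA was absent. The related PRDX5 stood at 321 FPKM in the JNJ-7706621 library and 368 FPKM in the DMSO library.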
